A study of Homo sapiens with 9 samples.

Results

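The TNF superfamily ligands examined here were TNF, LTA, LTB, TNFSF9, TNFSF10, TNFSF14, TNFSF15 and TNFSF18, which are 8 of the 62710 gene identifiers in the count table and 8 of 18 ligand genes of the family listed for comparison. They were taken by gene symbol from a list made with earlier results of these data known, with each identifier used once. The libraries came from HT-29, a human colorectal adenocarcinoma epithelial cell line, labelled wild type in all 9 libraries. The 3 conditions, each with 3 libraries of polyadenylated RNA, were no stimulation, 500 ng/mL flagellin and 500 ng/mL ADP-heptose, all for 2.5 h. Flagellin is the protein of bacterial flagella and is sensed by the receptor TLR5, and ADP-heptose is a sugar intermediate of bacterial lipopolysaccharide synthesis that is sensed inside the cell by the kinase ALPK1. The comparisons ask which ligands of this family an epithelial tumor cell line transcribes at rest, and how their RNA differs after each stimulus and between the stimuli.

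Ligands of the TNF superfamily are mostly made as trimeric membrane proteins, some of which are shed, and they signal through receptors of the TNF receptor superfamily on the same or neighboring cells. TNF and lymphotoxins are best known from immune cells, where their genes are targets of the transcription factor NF-κB, and the epithelium is usually described as a tissue that responds to them. Receptors with a death domain can start apoptosis, while others recruit TRAF proteins and lead to NF-κB activation.

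TNF, LTA and LTB lie side by side in the class III region of the major histocompatibility complex. In GENCODE release 29 on GRCh38, LTA is at chr6:31572054-31574324 and TNF at chr6:31575567-31578336, both on the plus strand, and LTB is at chr6:31580525-31582522 on the minus strand. The gap between LTA and TNF is 1.243 kb and that between TNF and LTB is 2.189 kb. TNFSF18 is at chr1:173039960-173050963, TNFSF10 at chr3:172505508-172523507, TNFSF15 at chr9:114784635-114806126 and TNFSF14 at chr19:6661253-6670588, all on the minus strand, and TNFSF9 is at chr19:6530999-6535928 on the plus strand. No exon of these 8 genes overlaps another gene in that annotation. Among genes named below, the receptors TNFRSF1B, TNFRSF6B, TNFRSF10A, TNFRSF10B, TNFRSF10C, TNFRSF12A, TNFRSF14, TNFRSF25, LTBR and RELT, the ligands TNFSF12 and TNFSF13, the neighbors DDX39B, NFKBIL1, ATP6V1G2, LST1, NCR3 and MCCD1, and CFLAR, CYLD, TNFAIP3, TRADD, FADD, RIPK1, RELA, ADAM17, ZC3H12A, IRF1, IFIT2, ISG15, OAS1, MX1, GBP2, TIFA and ALPK1 do share exon sequence with another gene, most of them on the opposite strand, and their counts are uncertain to that extent. The strand setting of the counting is not given, and it bears on overlap with the opposite strand only. Several genes, including TNFSF12, TNFSF13, TNFRSF6B, TNFRSF10C, DDX39B, ATP6V1G2 and GBP2, share exons on the same strand and are uncertain under any setting. The build to which the authors aligned is not given in the sources used here, so these coordinates describe the genes and not the alignment.

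The bases before the RefSeq start of 4 ligand genes (GRCh38.p14, 5′ to 3′ on the strand of the gene) are shown, because 3 of them (TNF, LTB and TNFSF18) had few or no counts at rest and more after both stimuli, and the fourth (TNFSF10) had counts in every library. Capitals mark matches to motifs, and stretches annotated as untranslated are left out. The windows are chr6:31575315-31575564 (plus strand), chr6:31582428-31582675 (minus), chr1:173050964-173051191 (minus) and chr3:172523508-172523680 (minus).

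TNF: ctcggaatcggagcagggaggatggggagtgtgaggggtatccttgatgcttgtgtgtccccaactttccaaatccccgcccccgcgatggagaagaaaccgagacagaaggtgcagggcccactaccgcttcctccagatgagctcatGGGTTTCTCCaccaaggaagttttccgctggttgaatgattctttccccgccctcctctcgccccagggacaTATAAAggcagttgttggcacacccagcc
LTB: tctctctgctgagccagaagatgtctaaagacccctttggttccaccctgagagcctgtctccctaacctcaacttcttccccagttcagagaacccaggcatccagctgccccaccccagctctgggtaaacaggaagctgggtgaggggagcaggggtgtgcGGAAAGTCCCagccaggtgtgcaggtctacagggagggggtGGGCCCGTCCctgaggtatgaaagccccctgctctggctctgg
TNFSF18: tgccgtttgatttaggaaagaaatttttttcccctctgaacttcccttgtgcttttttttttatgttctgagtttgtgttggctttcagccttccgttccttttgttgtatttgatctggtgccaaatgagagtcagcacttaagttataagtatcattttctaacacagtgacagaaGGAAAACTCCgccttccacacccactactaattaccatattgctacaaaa
TNFSF10: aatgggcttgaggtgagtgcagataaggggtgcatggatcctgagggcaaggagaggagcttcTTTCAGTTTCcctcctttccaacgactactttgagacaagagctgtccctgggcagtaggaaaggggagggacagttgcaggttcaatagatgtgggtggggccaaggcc

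Motifs were searched on both strands in the 250 bases before the start, and positions are counted from -1 at the base before it. LTB had a match to GGG and TTTCC with any 2 bases between, a form bound by NF-κB, on the opposite strand from -86 to -77, which reads GGAAAGTCCC on the strand shown. This match also counts under the looser form, GGG and TCC with any 4 bases between, and under the degenerate kappaB consensus, which overlap it. A second LTB match to the looser form, GGGCCCGTCC, ran from -45 to -36. TNF had a match to the looser form, GGGTTTCTCC, from -101 to -92, and the TATA box motif TATAAA from -29 to -24. TNFSF18 had a match to the kappaB consensus, GGAAAACTCC, from -72 to -63. TNFSF10 had a match to GAAA repeated after any 2 bases, a form bound by interferon regulatory factors, on the opposite strand from -187 to -178, seen as TTTCAGTTTC above, and TATAAA from -31 to -26, which lies outside the stretch shown. Of 27305 RefSeq promoter windows of the same length, 1.73% held the stricter GGG form, 19.4% the looser one, 11.9% the kappaB consensus, 3.07% the GAAA repeat and 11.1% TATAAA. TNFSF14, which had no counts, also had 2 overlapping matches to the kappaB consensus, and LTA had none of the motifs searched. TNFSF9 had the GAAA repeat from -194 to -185 and TATAAA from -30 to -25. TNFSF14 and TNFSF15 had the AP-1 motif TGANTCA, which 6.6% of the windows held. Both LTB matches lie inside the GENCODE span of LTB, which extends upstream of the RefSeq start. The RefSeq windows of TNFSF14 and TNFSF15, which are not shown, also lie inside the spans of their GENCODE genes. A match is a run of letters and was not tested as a binding site.

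The libraries held 35040844 to 37537705 counts in the non-stimulated group, 30770448 to 38304035 in the flagellin group and 50054773 to 58272772 in the ADP-heptose group. ADP-heptose replicate 3 was unlike the other libraries: over genes, its log2 differences from replicates 1 and 2 had SDs of 0.360 and 0.367, while every other pair within a group gave 0.133 to 0.172. Epithelial markers had more than 10 counts in every library for 9 of 10 genes, the exception being CDX1, and their summed level was 8234 to 8607 CPM (counts per 1e6 counts of scaled library size) without stimulation, 8437 to 8771 CPM after flagellin and 9048 to 12750 CPM after ADP-heptose. Of 12 immune cell markers, 5 (CD3D, CD3E, CD2, MS4A1 and FCGR3A) had 0 counts in all 9 libraries, and PTPRC, which marks nearly all leukocytes, had 2 counts in 1 non-stimulated library and 0 in the other 8. The summed immune markers reached 0.223 to 0.614 CPM without stimulation, 0.411 to 0.665 CPM after flagellin and 0.729 to 1.55 CPM after ADP-heptose, where ITGAM rose (23 to 59 counts, against 0 to 6 without stimulation, edgeR adjusted p = 0.0121) and passed the filter on low counts through these libraries alone. Of 8 stromal and endothelial markers, 4 (COL1A2, DCN, LUM and CDH5) had 0 counts everywhere. Their sum was 12.6 to 14.7 CPM without stimulation, 12.4 to 16.0 CPM after flagellin and 17.0 to 19.1 CPM after ADP-heptose, nearly all of it COL1A1, which rose by a log2 fold change of 0.41 after ADP-heptose (adjusted p = 0.0311). The part of these 2 genes in the results was not tested. In RNA from whole cultures, fewer cells expressing a ligand and less RNA per cell cannot be told apart.

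Without stimulation, HT-29 cells contained RNA of TNFSF15, TNFSF10 and TNFSF9 and little or none of the other members. Levels of different genes were compared as CPM per kilobase of exon. The length joins all annotated exons of a gene, and which transcripts were expressed was not examined, so the order depends on the annotation. On this scale TNFSF15 was highest at 12.56 ± 0.86 (SD, n = 3 in all values of this kind), followed by TNFSF10 at 2.80 ± 0.19, TNFSF9 at 1.10 ± 0.22 and LTB at 0.0815 ± 0.0571. TNFSF15 encodes TL1A, a ligand known in intestinal inflammation, TNFSF10 encodes TRAIL, which can start apoptosis, and TNFSF9 encodes the ligand of the T cell costimulatory receptor CD137. The ranges of TNFSF15, TNFSF10, TNFSF9 and LTB did not overlap. LTA had 0, 0 and 2 counts in the 3 non-stimulated libraries, and TNF, TNFSF18 and TNFSF14 had 0 counts in each. A count of 0 allows up to 3 counts, which is 0.0768 to 0.0835 CPM in these libraries.

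Low counts were more often even than odd. In each library 2107 to 2342 genes had exactly 2 counts and 1177 to 1463 had exactly 1, and 1092 to 1166 genes had exactly 4 while 619 to 732 had exactly 3. Limits for 0 counts and counting intervals treat each count as independent and cover counting error only, so they are too narrow where counts arrive in pairs. Whether both reads of a fragment were counted is not given in the sources used here.

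**Figure D1:**
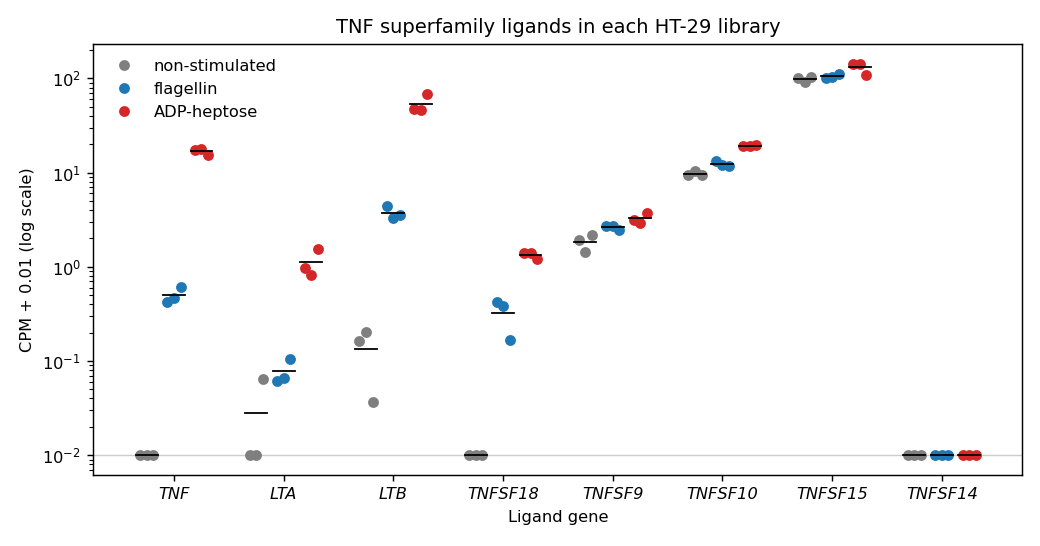
Level of each ligand gene in the 9 libraries, as CPM plus 0.01 on a log axis. Points are libraries colored by group, short black lines are group means, and the gray line marks 0 counts. TNF and TNFSF18 sit on that line in all 3 non-stimulated libraries and TNFSF14 in all 9, while the ADP-heptose points of TNF (15.2 to 17.8 CPM) and LTB (45.9 to 67.9 CPM) lie far above the other groups.

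After ADP-heptose, RNA of TNF, LTA, LTB and TNFSF18 was far higher than without stimulation, and that of TNFSF10, TNFSF9 and TNFSF15 was moderately higher. Genes were called at an adjusted p below 0.05 (edgeR quasi-likelihood test, Benjamini-Hochberg adjustment over 17412 genes tested) together with a change of at least 2-fold. At these thresholds 4 of the 8 ligands were called higher and 0 lower, where 2.89% of all genes tested were called higher and 0.471% lower. At an unadjusted p below 0.05, 0 members were lower in any of the 3 comparisons, and the DESeq2 test called the same members. TNF, LTA, LTB and TNFSF18 passed the filter on low counts through the stimulated libraries alone, since no non-stimulated library reached 0.2664 CPM for any of them, so a difference in these genes was built into their being tested and the count is given as a description. TNFSF14 was not tested.

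TNF, the cytokine after which the family is named, had 0, 0 and 0 counts without stimulation and 832, 1004 and 689 counts after ADP-heptose. These are 17.2, 17.8 and 15.2 CPM, and the groups did not overlap. Against 3 counts per non-stimulated library, TNF was at least 208.5-fold higher (edgeR adjusted p = 4.84e-09).

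LTB, which anchors lymphotoxin alpha at the cell surface in a heterotrimer that engages the lymphotoxin beta receptor, had 6, 7 and 1 counts without stimulation and 2294, 2590 and 3074 after ADP-heptose. Its mean went from 0.125 ± 0.0876 CPM to 53.73 ± 12.26 CPM, with ADP-heptose replicate 3 (67.9 CPM) well above replicates 1 and 2 (47.4 and 45.9 CPM). The log2 fold change was 8.72 (standard error, SE, 0.30, edgeR adjusted p = 1.48e-09), and it was 8.52 without ADP-heptose replicate 3. From counts alone the ratio was 425.2 (95% counting interval 253.3 to 778.1).

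LTA, the soluble or LTB-bound lymphotoxin, rose at a much lower level. It had 0, 0 and 2 counts without stimulation and 46, 46 and 70 after ADP-heptose. The ratio of CPM over the groups was 60.59, with a 95% counting interval of 16.5 to 504.5 that reflects the 2 counts in the denominator (edgeR adjusted p = 1.36e-04). Both counts came from non-stimulated replicate 3. Without that library the non-stimulated counts were all 0 and LTA was at least 13.77-fold higher.

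TNFSF18, the ligand of the receptor GITR on regulatory and activated T cells, had 0 counts in each non-stimulated library and 67, 78 and 54 after ADP-heptose. The mean of 1.32 ± 0.11 CPM was at least 16.44-fold above the level of 3 counts per library (edgeR adjusted p = 3.99e-05). All 3 ADP-heptose libraries lay above the non-stimulated ones, at 1.38, 1.38 and 1.19 CPM.

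TNFSF10 went from 9.39, 10.5 and 9.31 CPM to 19.4, 19.2 and 19.5 CPM. The groups were far apart and the ADP-heptose libraries, replicate 3 included, were nearly level with each other. The log2 fold change of 0.99 (SE 0.09, edgeR adjusted p = 1.06e-05) is a 1.99-fold change, so TNFSF10 lay just below the 2-fold threshold. Without non-stimulated replicate 2 the log2 fold change was 1.05, and TNFSF10 was then called.

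TNFSF9 had 1.92, 1.42 and 2.15 CPM without stimulation and 3.12, 2.91 and 3.71 CPM after ADP-heptose, again without overlap. Its log2 fold change was 0.82 (SE 0.18, edgeR adjusted p = 0.0118). It missed the threshold without non-stimulated replicate 2, the lowest library (0.67, adjusted p = 0.0515).

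TNFSF15 had 101.1, 91.5 and 104.6 CPM without stimulation and 143.1, 143.6 and 109.5 CPM after ADP-heptose. Replicates 1 and 2 were well above the non-stimulated libraries, and replicate 3 was only just above the highest of them. The log2 fold change was 0.41 (SE 0.10, edgeR adjusted p = 0.0195), and it was 0.54 (adjusted p = 1.45e-09) without ADP-heptose replicate 3. The adjusted p exceeded 0.05 in 7 of 17 alternative analyses, up to 0.127 with library totals as the scaling. It was 0.0669 without non-stimulated replicate 1, 0.0972 without non-stimulated replicate 2, 0.0751 without ADP-heptose replicate 1 and 0.0687 without ADP-heptose replicate 2.

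At an adjusted p below 0.05 with no fold threshold, TNFSF9, TNFSF10 and TNFSF15 were thus also higher, beside 7.48% of all genes tested that were higher and 4.42% that were lower. With all 3 ADP-heptose libraries above all 3 non-stimulated libraries, these 3 genes shared a feature found in 15.4% of the genes tested.

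**Figure D2:**
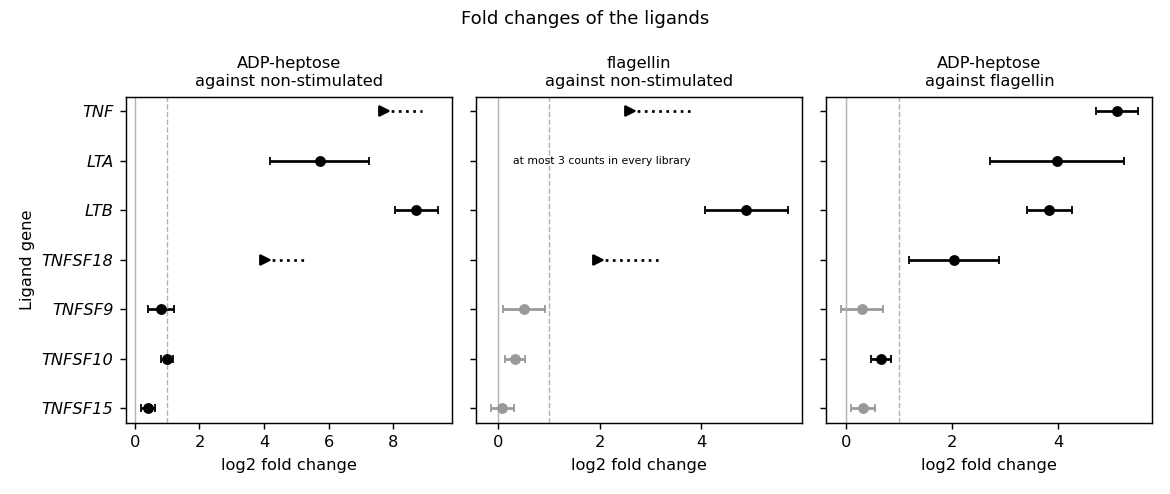
Log2 fold changes of 7 ligand genes in the 3 comparisons, with 95% confidence intervals as bars. Black marks an adjusted p below 0.05 and gray one above it, triangles with dotted lines are lower bounds against groups at 0 counts, and the dashed line is a 2-fold change. The 4 ligands with little or no RNA at rest stand to the right of TNFSF9, TNFSF10 and TNFSF15 in the ADP-heptose panels, and LTA has no value for flagellin because no library exceeded 3 counts.

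After flagellin the ligands that differed from non-stimulated cells were LTB, TNF and TNFSF18, at levels well below those after ADP-heptose. These 3 of 8 members were called higher and 0 lower, where 0.212% of all genes tested were called higher and 0.0115% lower. As above, they were tested only because of the stimulated libraries.

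LTB had 171, 116 and 113 counts after flagellin, against 6, 7 and 1 without stimulation. Its mean was 3.753 ± 0.568 CPM and its log2 fold change 4.88 (SE 0.37, edgeR adjusted p = 2.28e-05). Every flagellin library lay far above the highest non-stimulated one.

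TNF had 16, 16 and 19 counts after flagellin and 0 in each non-stimulated library. The mean of 0.489 ± 0.10 CPM was at least 6.09-fold above the level of 3 counts (edgeR adjusted p = 9.38e-04). The 3 flagellin libraries were close to each other and all lay above the non-stimulated ones.

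TNFSF18 had 16, 13 and 5 counts after flagellin, which is at least 3.895-fold above the level of 3 counts per library (edgeR adjusted p = 0.0187). The call depended on single libraries. The adjusted p was 0.0701, 0.0671 and 0.0689 without non-stimulated replicate 1, 2 or 3, and 0.0985 and 0.0844 without flagellin replicate 1 or 2. With the libraries thinned to the smallest total it was 0.0644, so that 2 members were called in these analyses. In a fit of the 6 flagellin and non-stimulated libraries alone, TNFSF18 did not pass the filter on low counts.

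The other ligands did not pass the test after flagellin. LTA had 2, 2 and 3 counts against 0, 0 and 2, and no fold is given because both groups were at or under 3 counts per library. TNFSF10 had 13.1, 11.9 and 11.7 CPM, each above the highest non-stimulated library (10.5 CPM), with a log2 fold change of 0.33 (SE 0.09, edgeR adjusted p = 0.464). TNFSF9 was also higher in all 3 flagellin libraries (2.72, 2.67 and 2.47 CPM), with a log2 fold change of 0.52 (SE 0.19, adjusted p = 1). Separation of this kind was found in 7.66% of the genes tested, and the opposite in 5.19%. TNFSF15 differed by a log2 fold change of 0.09, with a 95% confidence interval of -0.13 to 0.31, and its groups overlapped.

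The flagellin and ADP-heptose libraries were also compared directly, since both were set against the same non-stimulated libraries above. TNF, LTB, LTA and TNFSF18 were called higher after ADP-heptose than after flagellin, 4 of 8 members beside 2.06% of all genes tested, and 0 were lower beside 0.287%. LTA and TNFSF18 were tested only through the ADP-heptose libraries, since 0 and 2 flagellin libraries reached the filter of 0.2664 CPM. A difference in these 2 genes was thus partly built into their being tested, and the count is given as a description. TNF differed most, with a mean of 16.74 ± 1.35 CPM against 0.489 ± 0.10 CPM and a log2 fold change of 5.11 (SE 0.18, edgeR adjusted p = 3.17e-08). LTB differed by 3.83 on the log2 scale (SE 0.19, adjusted p = 6.52e-08). LTA differed by 3.99 (SE 0.58, adjusted p = 7.18e-04), a ratio of 16.31 with a 95% counting interval of 7.74 to 41.2. In each of these genes every ADP-heptose library lay above every flagellin library. Separation of this kind was found in 14.2% of the genes tested, and the opposite in 12.8%.

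TNFSF18 differed less between the stimuli, with a log2 fold change of 2.05 (SE 0.38, edgeR adjusted p = 0.00736). TNFSF10 was also higher after ADP-heptose than after flagellin, by 0.66 (SE 0.09, adjusted p = 4.09e-04), where 5.4% of all genes tested passed the adjusted p in that direction. TNFSF9 did not pass the test, and the 95% confidence interval of its log2 difference was -0.09 to 0.70. TNFSF15 gave 0.32 (confidence interval 0.10 to 0.55, adjusted p = 0.0803) with overlapping groups. Its adjusted p fell below 0.05 in 3 of 17 alternative analyses, to 6.7e-08 without ADP-heptose replicate 3, where the difference was 0.45, to 0.00694 without the filter on low counts and to 0.0477 with DESeq2.

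The proportion of LTB to TNF was compared between the 2 stimuli, with TNF at 16, 16 and 19 counts in the flagellin libraries. In each flagellin library there were 10.7, 7.25 and 5.95 LTB counts per TNF count, and in each ADP-heptose library there were 2.76, 2.58 and 4.46. Every flagellin library had the larger ratio. The log2 ratio differed by 1.29 (2.95 ± 0.43 against 1.66 ± 0.43, n = 3 each), with an exact two-sided permutation p = 0.1, which is the smallest p that 3 libraries against 3 can give. Without ADP-heptose replicate 3 the difference was 1.53. This ratio was chosen after the counts had been seen.

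The make-up of the ligand RNAs was examined over all 18 listed TNF superfamily ligands, as shares of their summed CPM per kilobase. These include TNFSF12 and TNFSF13, whose counts are uncertain because they share exons with a readthrough gene. The sum itself was 21.1 to 22.3 in the non-stimulated libraries, 25.9 to 27.2 after flagellin and 72.5 to 81.2 after ADP-heptose. TNFSF15 made up 55.1% to 60.3% of it without stimulation, 47.3% to 52.1% after flagellin and 17.1% to 25.1% after ADP-heptose, although its own level in each ADP-heptose library was above that in every non-stimulated library. LTB made up 0.0795% to 0.603% without stimulation, 8.28% to 10.5% after flagellin and 41.3% to 54.4% after ADP-heptose, where it had the largest share. In CPM, without division by exon length, TNFSF15 was above LTB after ADP-heptose, at 132.1 ± 19.5 against 53.73 ± 12.26. The TNF share was 0% without stimulation, 0.899% to 1.33% after flagellin and 11.2% to 14.7% after ADP-heptose. TNFSF10 kept a share of 12.1% to 14.3% without stimulation and 12.5% to 13.9% after flagellin, and made up 6.92% to 7.64% after ADP-heptose.

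The order of levels therefore differed between conditions. After flagellin it ran from TNFSF15 (13.38 ± 0.59 CPM per kb) through TNFSF10 (3.52 ± 0.23), LTB (2.45 ± 0.37), TNFSF9 (1.57 ± 0.08), TNF (0.292 ± 0.060) and TNFSF18 (0.156 ± 0.067) to LTA (0.0390 ± 0.0137), with no overlap between neighbors. After ADP-heptose it ran from LTB (35.0 ± 7.99 CPM per kb) through TNFSF15 (16.74 ± 2.47), TNF (9.99 ± 0.81), TNFSF10 (5.58 ± 0.04) and TNFSF9 (1.95 ± 0.25) to TNFSF18 (0.657 ± 0.055) and LTA (0.636 ± 0.224). The last 2 overlapped and cannot be ordered.

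**Figure D3:**
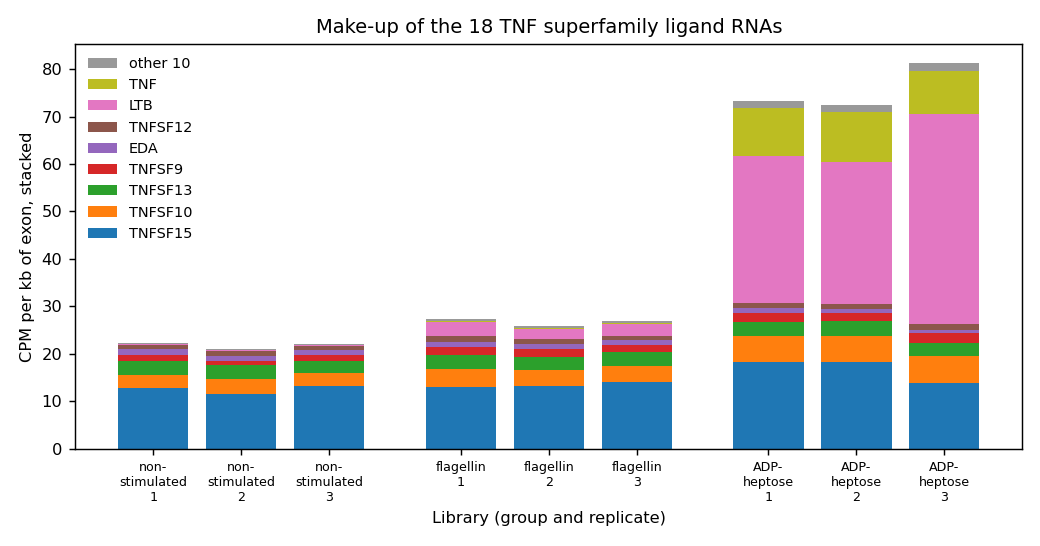
Stacked levels of the 18 TNF superfamily ligand genes in each library, in CPM per kilobase of exon. Each bar is 1 library, and the 10 ligands not named in the legend are pooled in gray. The bars reach 21.1 to 27.2 in the non-stimulated and flagellin libraries, with TNFSF15 (blue) as their largest segment, and 72.5 to 81.2 after ADP-heptose, where LTB (pink) is the largest.

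The 10 other ligands of the family were read from the same libraries. The split into members and others was made with earlier results of these data known, so their comparison is given as a description. CD40LG and TNFSF11 (RANKL) had 0 counts in all 9 libraries, and FASLG, TNFSF4 and CD70 had at most 4, 8 and 6 counts in any library. The 5 that could be tested were TNFSF8, TNFSF12 (TWEAK), TNFSF13 (APRIL), TNFSF13B (BAFF) and EDA, and 0 of them were called in any of the 3 comparisons with edgeR or DESeq2. Over all genes tested, edgeR called 2.89% higher after ADP-heptose, 0.212% after flagellin and 2.06% between the stimuli. It called 0.471%, 0.0115% and 0.287% lower, so 0 of 5 is near these shares. At an unadjusted p below 0.05, TNFSF13B alone was lower, after ADP-heptose. The median over these 5 ligands on the log2 scale was -0.05 after ADP-heptose, 0.07 after flagellin and -0.04 between the stimuli, beside medians over all genes tested of 0.0087, 0.0048 and 0.0065. TNFSF13 and TNFSF12 were at 6.29 ± 0.66 and 1.94 ± 0.27 CPM without stimulation, and their 95% confidence intervals after ADP-heptose were -0.20 to 0.32 and -0.27 to 0.55. Both share exons on the same strand with the readthrough gene TNFSF12-TNFSF13, which makes their counts uncertain. TNFSF13B was lower in all 3 ADP-heptose libraries (9, 11 and 9 counts) than in the non-stimulated ones (13 to 14 counts), with a log2 fold change of -0.91 (SE 0.40, adjusted p = 0.176). It passed the filter on low counts through the non-stimulated libraries alone. A lower level after ADP-heptose was thus partly built into its being tested, and 14.7% of all genes tested were separated in this direction.

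The genes next to TNF, LTA and LTB were read from the same fit. Of 8 neighbors listed, 4 could be tested and 0 were called in any comparison with edgeR or DESeq2. Over all genes tested, edgeR called 2.89% higher after ADP-heptose, 0.212% after flagellin and 2.06% between the stimuli. It called 0.471%, 0.0115% and 0.287% lower, so 0 of 4 is near these shares. The median log2 fold changes of the neighbors were 0.09, 0.06 and 0.26, beside 0.0087, 0.0048 and 0.0065 over all genes tested. NFKBIL1, whose start is 28.7 kb from that of TNF, was the single one at an unadjusted p below 0.05, in both comparisons with ADP-heptose, with a log2 fold change of 0.53 after ADP-heptose (SE 0.16, edgeR adjusted p = 0.0576) and 1296, 1379 and 1886 counts against 738 to 858. DDX39B and PRRC2A, which are abundant, had log2 fold changes of 0.12 (SE 0.11) and 0.06 (SE 0.08), and ATP6V1G2 was at 14 counts or fewer in every library. LST1, expressed in leukocytes, had 7, 16 and 13 counts after ADP-heptose and at most 4 in any other library, but did not pass the filter. NCR3, AIF1 and MCCD1 had at most 8 counts in any library.

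**Figure D4:**
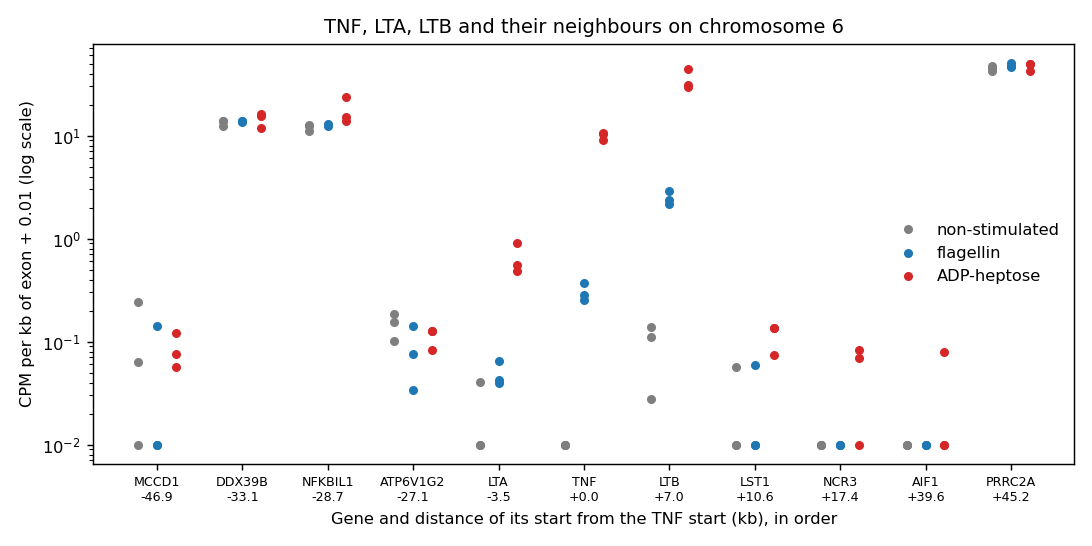
Levels of TNF, LTA, LTB and 8 neighboring genes in each library, as CPM per kilobase of exon plus 0.01 on a log axis, in the order of their starts along the chromosome. Distances are from the TNF start. The groups are widely separated at LTB and TNF, while at DDX39B and PRRC2A the points of the 3 groups overlap.

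Receptors for these ligands were examined from a list of 13 genes, of which 9 could be tested. After ADP-heptose 2 of them, TNFRSF9 and TNFRSF10B, were called higher, beside 2.89% of all genes tested, and 0 lower. At an adjusted p below 0.05, 5 were higher, beside 7.48% of all genes tested. After flagellin 0 were called with edgeR or DESeq2 (2 were higher at an unadjusted p below 0.05). ADP-heptose against flagellin called the same pair higher, beside 2.06% of all genes tested. The median log2 fold changes of the tested receptors were 0.45, 0.10 and 0.41 in the 3 comparisons, beside 0.0087, 0.0048 and 0.0065 over all genes tested. Like the other lists, this one was written with earlier results of these data known, so such counts are given as a description.

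TNFRSF9 encodes CD137, the receptor of TNFSF9. It had 0, 2 and 0 counts without stimulation, 5, 6 and 4 after flagellin and 165, 191 and 116 after ADP-heptose. The ratio of ADP-heptose to non-stimulated CPM was 176.5 with a 95% counting interval of 48.6 to 1462 (edgeR adjusted p = 9.2e-07). Like LTA, TNFRSF9 passed the filter on low counts through the ADP-heptose libraries alone, so the call is given as a description. The 3 groups did not overlap, but the flagellin difference did not pass the test (adjusted p = 0.509). Its ligand TNFSF9 had a log2 fold change of 0.82 in the same libraries, given above.

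TNFRSF10B and TNFRSF10A are the death receptors of TNFSF10. TNFRSF10B had 135.9, 119.4 and 131.4 CPM without stimulation, 150.6, 150.1 and 155.0 CPM after flagellin and 434.8, 445.8 and 334.1 CPM after ADP-heptose. Its log2 fold change after ADP-heptose was 1.65 (SE 0.10, edgeR adjusted p = 3.41e-07), and replicate 3 was the lowest of the ADP-heptose libraries. TNFRSF10A changed by 0.45 (SE 0.10, adjusted p = 0.00826). The decoy receptor TNFRSF10D gave 0.32 (SE 0.11, adjusted p = 0.0732), the soluble receptor TNFRSF11B gave -0.28 (SE 0.10, adjusted p = 0.0901), and TNFRSF10C had 1 count in all libraries together.

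TNFRSF1A, the receptor of TNF and soluble LTA, was among the more abundant receptors per kilobase (20.7 ± 0.8 CPM per kb without stimulation) and rose by a log2 fold change of 0.47 after ADP-heptose (SE 0.08, edgeR adjusted p = 0.00122). TNFRSF1B, the other TNF receptor, had 0 counts in each non-stimulated library and 10 counts in ADP-heptose replicate 3 alone among the ADP-heptose libraries. LTBR, the receptor of the LTA and LTB heterotrimer, was at 75.8 ± 3.2 CPM without stimulation, 77.5 ± 4.9 CPM after flagellin and 72.8 ± 5.9 CPM after ADP-heptose. Its log2 fold changes had 95% confidence intervals of -0.23 to 0.12 after ADP-heptose and -0.14 to 0.21 after flagellin. LTBR RNA was thus measured in every library, and any difference was small beside that of LTB.

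TNFRSF14, which binds TNFSF14 and LTA, rose by a log2 fold change of 0.81 after ADP-heptose (SE 0.14, edgeR adjusted p = 0.00169). TNFRSF25, the receptor of TNFSF15, gave 0.43 (SE 0.15, adjusted p = 0.0856). TNFRSF18, the GITR receptor of TNFSF18, stayed at 1 to 8 counts per library, and the decoy TNFRSF6B had 0 counts in all 9. TNFRSF6B shares exons with the readthrough gene RTEL1-TNFRSF6B, which makes its 0 uncertain.

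**Figure D5:**
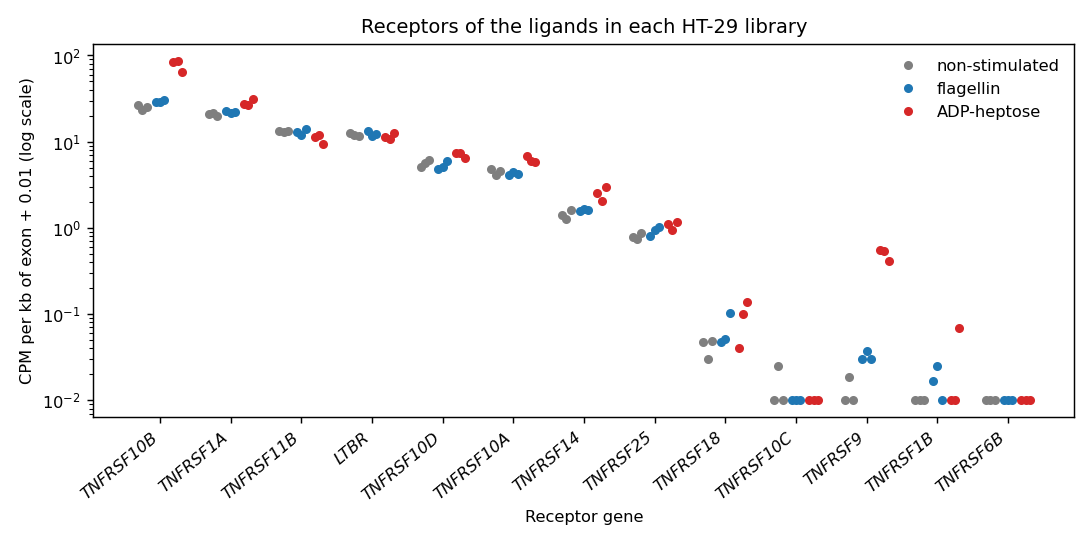
Levels of 13 receptor genes in each library, as CPM per kilobase of exon plus 0.01 on a log axis, ordered by their mean without stimulation. Points are libraries colored by group. TNFRSF9 and TNFRSF10B are separated after ADP-heptose, LTBR is level in the 3 groups, and TNFRSF6B has 0 counts in all libraries.

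Among 16 other receptors of the superfamily, 7 could be tested. RELT was the single gene called after ADP-heptose (log2 fold change 1.10, edgeR adjusted p = 6.64e-05), beside 2.89% of all genes tested called higher. TNFRSF12A rose by 0.87 (adjusted p = 2.15e-06) without reaching 2-fold, TNFRSF11A fell by 0.28 on the log2 scale (adjusted p = 0.0378), and 0 were called after flagellin or between the stimuli with edgeR or DESeq2 (2 and 3 were higher at an unadjusted p below 0.05, and 0 and 1 lower). DESeq2, which tests genes of lower counts, also called TNFRSF4 after ADP-heptose.

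Genes that act downstream of these receptors were read from the same fit. Of 14 receptor-proximal adaptors and regulators, all tested, 6 were called higher after ADP-heptose, beside 2.89% of all genes tested, and 0 lower. The median log2 fold change was 0.83, beside 0.0087 over all genes tested. The 6 were BIRC3 (4.93), TNFAIP3 (4.76), CYLD (1.48), TRAF1 (1.14), CFLAR (1.14) and BIRC2 (1.11), of which TNFAIP3 and CYLD encode deubiquitinases that restrain signaling and BIRC2 and BIRC3 encode ubiquitin ligases of the receptor complex. BIRC3 (2.08) and TNFAIP3 (1.27) were also called after flagellin, beside 0.212% of all genes tested called higher. The death domain adaptors TRADD (0.01) and FADD (-0.32, adjusted p = 0.0532) and the kinase RIPK1 (0.15) did not pass the test after ADP-heptose. In ADP-heptose against flagellin FADD was lower (-0.43, adjusted p = 0.0149), below 2-fold.

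Of 8 NF-κB subunits and inhibitors, all tested, 6 were called higher after ADP-heptose, 2 after flagellin (NFKB2 and RELB) and 6 in ADP-heptose against flagellin, with 0 called lower in each. The shares called higher over all genes tested were 2.89%, 0.212% and 2.06%. Median log2 fold changes of the list were 2.57, 0.66 and 1.73, beside 0.0087, 0.0048 and 0.0065 over all genes tested. NFKBIA, the inhibitor IκBα, had the largest value after ADP-heptose (3.94, edgeR adjusted p = 3.74e-12), and RELA passed the test below 2-fold (0.95, adjusted p = 6.73e-07).

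Regulators of TNF mRNA decay and TNF shedding were taken from a list of 11 genes, of which 10 could be tested. ZFP36 (tristetraprolin), which binds AU-rich elements of TNF mRNA, rose by a log2 fold change of 1.97 after ADP-heptose (SE 0.08, edgeR adjusted p = 8.16e-09), and ZC3H12A (Regnase-1), an RNase, by 1.99 (SE 0.07, adjusted p = 1.28e-09). These were the 2 genes called, with 0 lower, beside 2.89% of all genes tested called higher. The list median was 0.16, beside 0.0087 over all genes tested. ZC3H12A also passed the adjusted p after flagellin (0.73, adjusted p = 1.56e-04), below 2-fold, while ZFP36 gave 0.10 (adjusted p = 1). ADAM17, the protease that sheds TNF, gave 0.13 after ADP-heptose (adjusted p = 0.611), and TIMP3, its inhibitor, had 0 counts in all libraries.

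TNFSF10 is also known as an interferon-inducible gene, so 12 interferon-stimulated genes were listed beside it, all tested. After ADP-heptose IRF1 (3.61) and IRF7 (1.05) were called higher, beside 2.89% of all genes tested, and 0 lower. The list median was 0.23, beside 0.0087 over all genes tested. IFIT1, IFIT3, ISG15, OAS1 and GBP2 lay between -0.16 and 0.32 and did not pass the test, nor did IFIT2 (0.31), OAS2 (0.67), MX1 (-1.39) and GBP1 (1.97). After flagellin IFIT2 was the single gene called (1.11, edgeR adjusted p = 0.0250), beside 0.212% of all genes tested called higher, with a list median of 0.29. IFIT2 was lower after ADP-heptose than after flagellin by a log2 fold change of -0.80 (adjusted p = 0.0163). Of the genes that sense the stimuli, TIFA, an adaptor of ALPK1, was the single one of 4 tested to be called after ADP-heptose (2.18, adjusted p = 2.24e-07), beside 2.89% of all genes tested. After flagellin 0 of these 4 were called with edgeR or DESeq2, with TIFA at 0.67 (adjusted p = 0.0609). TLR5 had 0 to 14 counts per library and did not pass the filter. DESeq2 called 0 genes lower in any of the lists, and at an unadjusted p below 0.05 the genes lower after ADP-heptose were 2 adaptors, 1 receptor of the members, 1 other receptor, 1 regulator of TNF mRNA decay, 1 interferon-stimulated gene, 1 epithelial marker and TNFSF13B.

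For each ligand that could be tested, the genes whose log2 CPM followed it most closely over the 9 libraries were taken from 11432 genes outside the lists. The closest was ICAM1 for TNF (Pearson r = 0.997), CXCL2 for LTB (0.996), TNFAIP8 for LTA (0.992) and CCL20 for TNFSF18 (0.990), followed by SDC4 and CXCL3 for TNF, STAT5A and LRRC1 for LTB, SDR16C5 for LTA, and TNFAIP2 and CD83 for TNFSF18. It was POLA2 for TNFSF10 (0.994), followed by PTP4A3 and CEBPD, SPAG9 for TNFSF15 (0.993), followed by MAPK6 and ELOVL7, and MGRN1 for TNFSF9 (0.970), followed by PPP1R13L and SMPD1. The 9 points fall into 3 groups, so these values describe likeness of pattern and carry no test.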

How the data were processed

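The deposited table holds raw counts per gene. Per the labels and the study's methods, the authors sequenced poly(A)-enriched RNA as paired reads of 150 bases, aligned it with HISAT2 and made the counts with featureCounts, 1 column per library. Versions, build, annotation and strandedness are not given in the sources used here. Of 62972 lines, those repeating an identifier (232 identifiers, all with identical counts) were used once, leaving 62710 identifiers, 92.9% of them in GENCODE release 29, which gave exon lengths and positions.

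Counts were fitted for all 9 libraries together with edgeR 4.0.16 in R 4.3.3 (TMM scaling, filterByExpr with a minimum count of 10, robust quasi-likelihood fit and F test), which left 17412 genes. CPM are counts per 1e6 of TMM-scaled library size. Calls required a Benjamini-Hochberg adjusted p below 0.05 and at least 2-fold. Folds against groups at 0 use 3 counts per library, and ratios with few counts have exact 95% counting intervals. The study describes independent experiments, but the labels do not tie libraries to them, so p-values measure the spread between these libraries. An exact permutation test of 1 gene in 3 against 3 libraries cannot go below 0.1. The analysis was tested on simulated data.

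The genes named are the 8 members, those of the lists and, per tested member, the 3 genes outside the lists with the highest Pearson r and a mean log2 CPM of at least 1; some genes of the lists and of this rule are not reported here. The members and lists were chosen with earlier results of these data known. Alternatives were DESeq2 (1.42.0) size factors and test, library totals, no filter or a minimum mean of 10 counts, 6 libraries per fit, a replicate block, no fold threshold, thinning to 30770448 counts and each library left out. Promoters are from RefSeq. Plots were drawn with matplotlib.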

Additional observations from a re-analysis of the deposited data

How the results depend on the processing

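For single members, 337 of the recomputed values kept their direction and their side of an adjusted p of 0.05, 15 no longer passed it, 3 newly passed it and 0 changed direction. The 2-fold threshold was not part of this tally, so TNFSF10 without non-stimulated replicate 2 is among the 337. Any value without an adjusted p would be as well. The 15 were TNFSF15 and TNFSF9 after ADP-heptose and TNFSF18 after flagellin, and the 3 were TNFSF15 in ADP-heptose against flagellin. TNFSF15 gave an adjusted p of 0.0477 with DESeq2 and 0.00694 without the filter, and 6.7e-08 without ADP-heptose replicate 3. The causes were not tested.

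With no fold threshold, 7 members were higher after ADP-heptose than without stimulation, and the genes called were 1302 higher and 770 lower in that comparison, 64 higher after flagellin, and 940 higher and 481 lower in ADP-heptose against flagellin. With library totals in place of TMM, 175 genes were called lower after ADP-heptose and 93 lower than after flagellin, the median over all genes tested shifted to -0.127 and -0.1125 on the log2 scale, and the share of higher genes among calls went from 86.0% to 71.0% and from 87.8% to 76.9%. TNF, LTA, LTB and TNFSF18 kept their direction and call under this scaling. Without the filter on low counts, 60 genes were called higher and 8 lower after flagellin, and 77 lower in ADP-heptose against flagellin. With single libraries left out, the genes called lower ranged from 49 to 96 after ADP-heptose, from 0 to 3 after flagellin and from 31 to 59 between the stimuli. In the same analyses the members called higher ranged from 4 to 5 after ADP-heptose, where the fifth was TNFSF10, and from 2 to 3 after flagellin, and 4 were called in ADP-heptose against flagellin in each.

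The replicate numbers are shared between groups. For same-numbered libraries, 2 of 9 correlations of their deviations from the group means exceeded 0.1 (-0.447 to 0.293, against -0.461 to 0.498 for other pairs). Deviations from the mean of 3 libraries depend on each other, and those of ADP-heptose replicate 3 ran opposite to replicates 1 and 2. These correlations therefore cannot show whether same-numbered libraries came from the same experiment. With the replicate number as a block, the members called higher were 4 after ADP-heptose, 2 after flagellin (TNFSF18 at an adjusted p of 0.0798) and 4 between the stimuli, TNFSF15 after ADP-heptose was at 0.0549, and 1 gene was called lower after flagellin.

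Depth limits LTA, TNFSF18 and the flagellin values of TNF, which rest on 2 to 78 counts per library where they were detected, whereas TNFSF10 and TNFSF15 had 347 counts or more in each library and are limited by the spread between libraries. TNFSF14 had 0 counts in every library, which allows up to 3 counts, or 0.0532 to 0.0950 CPM.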
